A study of Mus musculus with 30 samples.

Results

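The genes described here belong to the interferon response and to antigen presentation by the major histocompatibility complex (MHC). Probes were taken when the platform annotation gave them the symbol of 1 of 37 listed genes. This gave 60 probes of 36 genes, of 46643 probes and 19406 named genes on the array. Ifi44 had no probe, 20 genes had 1 probe, and the other 16 had 2 to 4. The data are 30 Illumina bead arrays of liver and subcutaneous fat from male mice aged 4 months, killed after a night without food. In each tissue, 3 arrays each came from mice whose growth hormone receptor (Ghr) was removed (KO), mutated in the Box1 region (Box1), cut short at amino acid 391 (391) or at amino acid 569 (569), or left intact as wild type (WT). The strain of the mice is not given in the sources used here, and genotypes below are as labelled.

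Type I interferons are secreted by cells that sense viral nucleic acid. Type I interferons act through receptors linked to the kinases JAK1 and TYK2, and interferon gamma through receptors linked to JAK1 and JAK2, which activate STAT transcription factors. The products include antiviral effectors, RNA sensors, interferon regulatory factors (Irf), GTPases, chemokines, and the machinery that cuts peptides and loads them on MHC class I molecules. MHC class II molecules present peptides from engulfed material on dendritic cells, B cells and macrophages, and their genes are switched on by the coactivator Ciita. The growth hormone receptor also signals through JAK2, which binds at Box1, and through STAT5, which docks on tyrosines of the receptor's tail. The 391 truncation lacks these docking tyrosines and the 569 truncation keeps some of them.

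Each value is a ratio of a probe to the median of that probe over the 15 arrays of its tissue, so a value of 1 is the middle array and nothing is known of the level itself. Ratios of members lay between 0.05 and 3.17. Because signal over background is unknown, no probe was filtered out and all 60 were tested. A probe is called when its adjusted p lay under 0.05 in limma, with Benjamini-Hochberg adjustment over all 46643 probes. With no levels, the tissue labels could not be checked against defining markers. In liver, 391 replicates 2 and 3 held transcripts of pancreas (median log2 ratio of the markers of 3.32 and 2.56), and replicate 2 also those of muscle (3.14), and in fat 569 replicate 3 stood apart (adipocyte markers at −2.32). The array slides put WT with 569 and 391 with KO in each tissue, and Box1 of both tissues on a slide of its own, so slide and genotype cannot be told apart in any comparison but 569 with WT and KO with 391. Ghr itself had probes whose positions relative to the altered part are not given here: 1 probe was lower in Box1 liver (difference of −2.05, adjusted p = 2e-04), and neither probe was called in KO liver (0.34 and 0.23). These probes therefore check none of the KO labels. Differences below are on the log2 scale with their SE, and 3 arrays per group limit their precision.

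Promoters of 4 members are printed because their letters carry the motifs through which the described groups are known to be switched on. The windows run from 250 bases before to 50 bases after the start of the gene, on the gene's strand, from RefSeq on GRCm38.p6, and 28 of the 36 genes had one. H2-Eb1 (chr17:34305617-34305916, + strand) and H2-Aa (chr17:34287774-34288073, − strand) encode class II chains and are shown for the boxes of class II promoters, with capitals on the Y box core ATTGG on either strand and, in H2-Eb1, on the X box core AACNGATG. Irf8 (chr8:120736108-120736407, + strand) is shown for the gamma-activated site TTCNNNGAA, in capitals. Isg15 (chr4:156200769-156201068, − strand) is shown for 3 overlapping copies of the core of the interferon-stimulated response element, GAAANNGAA, in capitals.
H2-Eb1: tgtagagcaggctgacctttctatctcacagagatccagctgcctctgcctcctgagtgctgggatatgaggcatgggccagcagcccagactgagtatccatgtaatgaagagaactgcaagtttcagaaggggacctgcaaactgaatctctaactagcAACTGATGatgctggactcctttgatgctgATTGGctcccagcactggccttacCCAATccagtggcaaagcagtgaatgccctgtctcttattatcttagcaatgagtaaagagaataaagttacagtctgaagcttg
H2-Aa: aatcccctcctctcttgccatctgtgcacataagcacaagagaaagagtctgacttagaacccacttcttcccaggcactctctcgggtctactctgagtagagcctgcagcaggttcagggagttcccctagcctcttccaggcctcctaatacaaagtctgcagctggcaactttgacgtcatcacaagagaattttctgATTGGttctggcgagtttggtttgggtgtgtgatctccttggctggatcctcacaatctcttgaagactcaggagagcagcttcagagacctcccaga
Irf8: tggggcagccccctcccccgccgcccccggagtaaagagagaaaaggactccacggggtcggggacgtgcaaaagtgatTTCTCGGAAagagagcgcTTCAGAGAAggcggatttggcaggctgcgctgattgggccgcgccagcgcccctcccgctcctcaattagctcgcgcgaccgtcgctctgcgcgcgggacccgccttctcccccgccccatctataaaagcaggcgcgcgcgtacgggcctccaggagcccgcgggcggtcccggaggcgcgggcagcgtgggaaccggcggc
Isg15: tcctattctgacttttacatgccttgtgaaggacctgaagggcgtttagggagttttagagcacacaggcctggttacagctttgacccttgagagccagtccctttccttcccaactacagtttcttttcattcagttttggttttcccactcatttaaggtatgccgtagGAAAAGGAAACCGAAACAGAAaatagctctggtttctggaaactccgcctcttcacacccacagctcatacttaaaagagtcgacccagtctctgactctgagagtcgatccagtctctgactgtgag

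On both strands, the response element core was found in 12 of the 28 promoters (42.9%), against 9.76% of the promoters of 27025 genes: those of Isg15, Ifit1, Ifit3, Rsad2, Ifih1, Ddx58, Gbp2, Gbp3, Igtp, B2m, Cxcl9 and Cxcl10. The gamma-activated site was found in 5 (17.9%, against 9.55% of all), namely Ifit2, Irf1, Irf8, Igtp and Psmb8. The Y box core was found in 15 (53.6%, against 41.1%), and the X box core in H2-Eb1 alone (3.57%, against 2.67%). The members share a list that was drawn up for their regulation, so these shares describe the list and not the mice.

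In liver, 4 of the 5 class II genes were higher in a pooled comparison of the genotypes KO, Box1 and 391, whose receptors are absent, cannot engage JAK2 or lack the STAT5 docking tyrosines. Averaged over KO, Box1 and 391 livers and set against the average of 569 and WT livers, 7 of the 9 class II probes rose, and they covered H2-Aa, H2-Ab1, H2-Eb1 and Cd74. In the same comparison 8.69% of all probes were called higher, and 16.5% of all named genes had a called probe. The median difference over the 9 probes was 0.88, beside 0.019 over all probes. H2-Aa, the alpha chain of the molecule I-A, had ratios of 1.57, 1.9 and 1.77 in KO livers, 1.65, 0.69 and 1.04 in Box1 livers, and 1, 0.76 and 1.5 in 391 livers, against 0.64, 0.47 and 0.77 in 569 livers and 0.7, 1.03 and 0.58 in WT livers. All KO arrays lay above all 569 and WT arrays, while Box1 replicate 2 and 391 replicates 1 and 2 lay within the range of those groups. The difference was 0.88 ± 0.19, a 1.84-fold higher ratio (limma, adjusted p = 0.009).

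Cd74, the invariant chain that escorts class II molecules to the compartment where they are loaded, had ratios of 1.76, 1.74 and 1.89 in KO livers, 1.95, 0.76 and 1.35 in Box1 livers, and 1.26, 0.75 and 1.64 in 391 livers, against 0.64, 0.47 and 0.88 in 569 livers and 0.79, 1 and 0.58 in WT livers. Box1 replicate 2 and 391 replicate 2 were again the lowest arrays of their genotypes. It rose by 0.97 ± 0.21 (adjusted p = 0.0083), and its other probe rose by 0.50 ± 0.14 (adjusted p = 0.035). The call of that other probe was lost with quantile normalization and in 8 of 15 refits that left out an array. H2-Ab1, the beta chain of I-A, had ratios of 1.39, 2.12 and 1.8 in KO livers, 1.28, 0.57 and 1.1 in Box1 livers, and 1, 0.73 and 1.33 in 391 livers, against 0.56, 0.48 and 0.74 in 569 livers and 0.57, 1.16 and 0.53 in WT livers. WT replicate 2 was thus above several Box1 and 391 arrays and below every KO array. The 3 H2-Ab1 probes rose by 0.87 ± 0.21, 0.94 ± 0.25 and 1.03 ± 0.23 (adjusted p of 0.016, 0.025 and 0.0091). The first and second of these lost their call with quantile normalization, and in 2 and 3 of 15 refits that left out an array.

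H2-Eb1, the beta chain of the molecule I-E, had ratios of 1.52, 1.9 and 2.14 in KO livers, 1.56, 0.57 and 1 in Box1 livers, and 1.23, 0.72 and 1.62 in 391 livers, against 0.64, 0.4 and 0.7 in 569 livers and 0.68, 1.21 and 0.62 in WT livers. It rose by 0.91 ± 0.23 (adjusted p = 0.021), again with KO arrays above all of 569 and WT. The call of H2-Eb1 was lost with quantile normalization, with a robust prior, and without 569 replicate 2 or WT replicate 3. Ciita, the coactivator of these genes, was not called: its lead probe had ratios of 1, 1.21 and 1.43 in KO livers, 1.22, 0.79 and 0.91 in Box1 livers, and 1.09, 1.03 and 1.16 in 391 livers, against 0.94, 0.84 and 0.95 in 569 livers and 0.92, 1.08 and 0.83 in WT livers. The groups overlapped for Ciita, and its second probe had a difference of −0.02. The plot of liver ratios by gene shows KO apart from 569 and WT, and Box1 replicate 2 and 391 replicate 2 low, in H2-Aa, H2-Ab1, H2-Eb1 and Cd74.

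**Figure D1:**
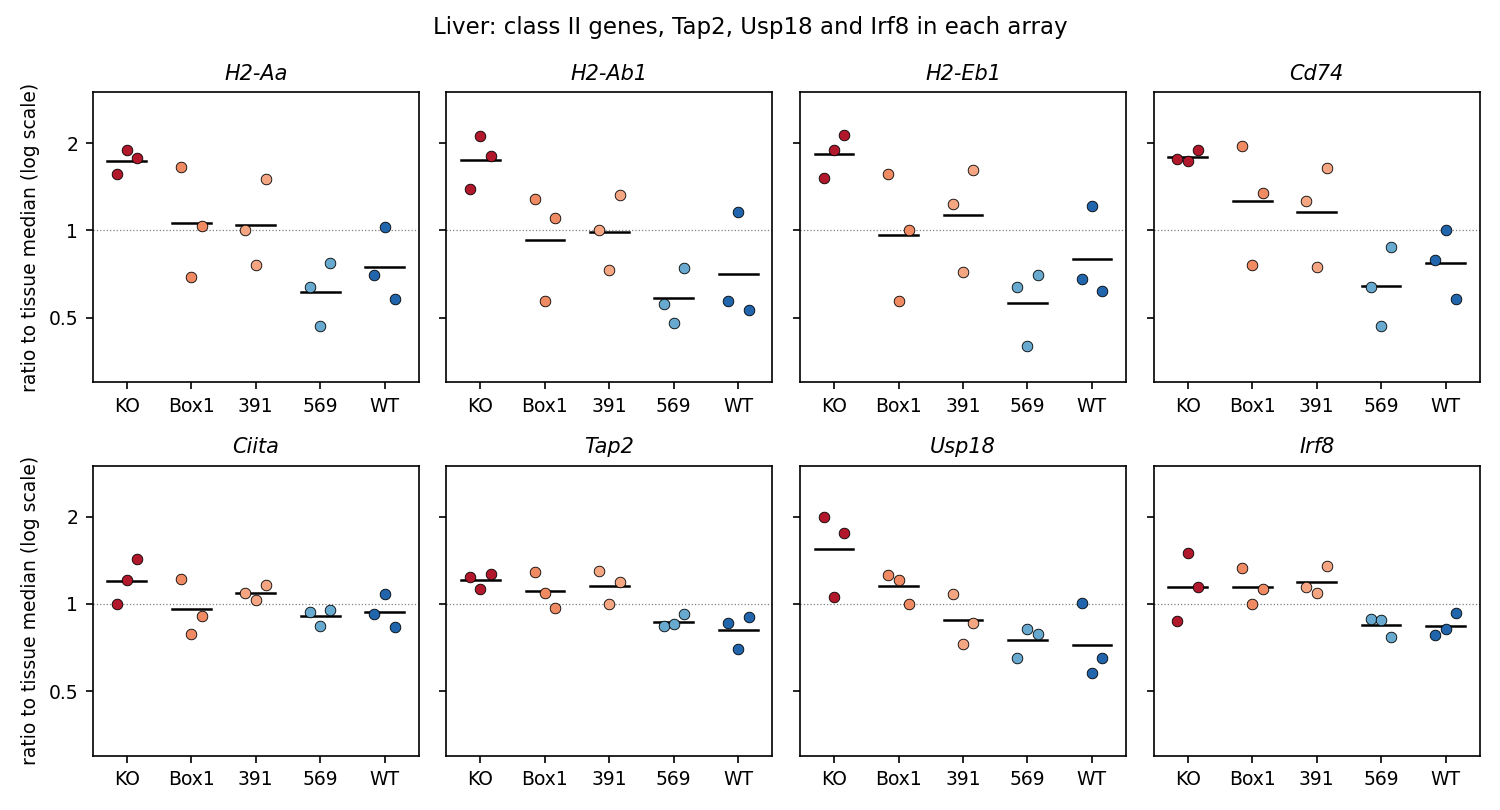
Ratio of the lead probe of 8 members in each liver array (vertical axis, ratio to the tissue median, log scale) by genotype, with 3 arrays per genotype as points and bars at the mean of the log2 ratios. KO arrays of H2-Aa lie between 1.57 and 1.9, above all 569 arrays (0.47 to 0.77) and all WT arrays (0.58 to 1.03), and Box1 replicate 2 is the lowest Box1 point in H2-Aa, H2-Ab1, H2-Eb1 and Cd74.

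Genotype by genotype, the class II differences varied in size and did not reach the threshold. The median over the 9 probes was 1.2 for KO minus WT, 0.40 for Box1 minus WT, 0.48 for 391 minus WT and −0.27 for 569 minus WT. All KO arrays lay above all WT arrays for 7 of the 9 class II probes, as they did for 10.6% of all probes, and 1.93% of all probes were called in KO against WT. None of these was called alone: H2-Aa differed by 1.22 (adjusted p = 0.051), an H2-Ab1 probe by 1.31 (adjusted p = 0.055) and Cd74 by 1.22 (adjusted p = 0.077). KO minus 391, measured on 1 slide, had a class II median of 0.63 with no call, and H2-Aa differed by 0.74 (adjusted p = 0.53).

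Over all roles, 11 of the 60 member probes were called in the pooled liver comparison, all higher. Across the array 9.61% of the probes were called there and 8.69% were called higher, against 18.3% of the member probes. By gene, 8 of 36 members were called (22.2%), beside 16.5% of all named genes, which is near the background. The array as a whole leaned the same way, with 4055 probes called higher and 427 lower. With quantile normalization the array split was 2660 higher and 729 lower and 6 member probes were called, and 6 were called without 569 replicate 2 or without WT replicate 3. Without the 391 arrays that held pancreatic transcripts, 13 were called, and the class II median was 0.87.

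**Figure D2:**
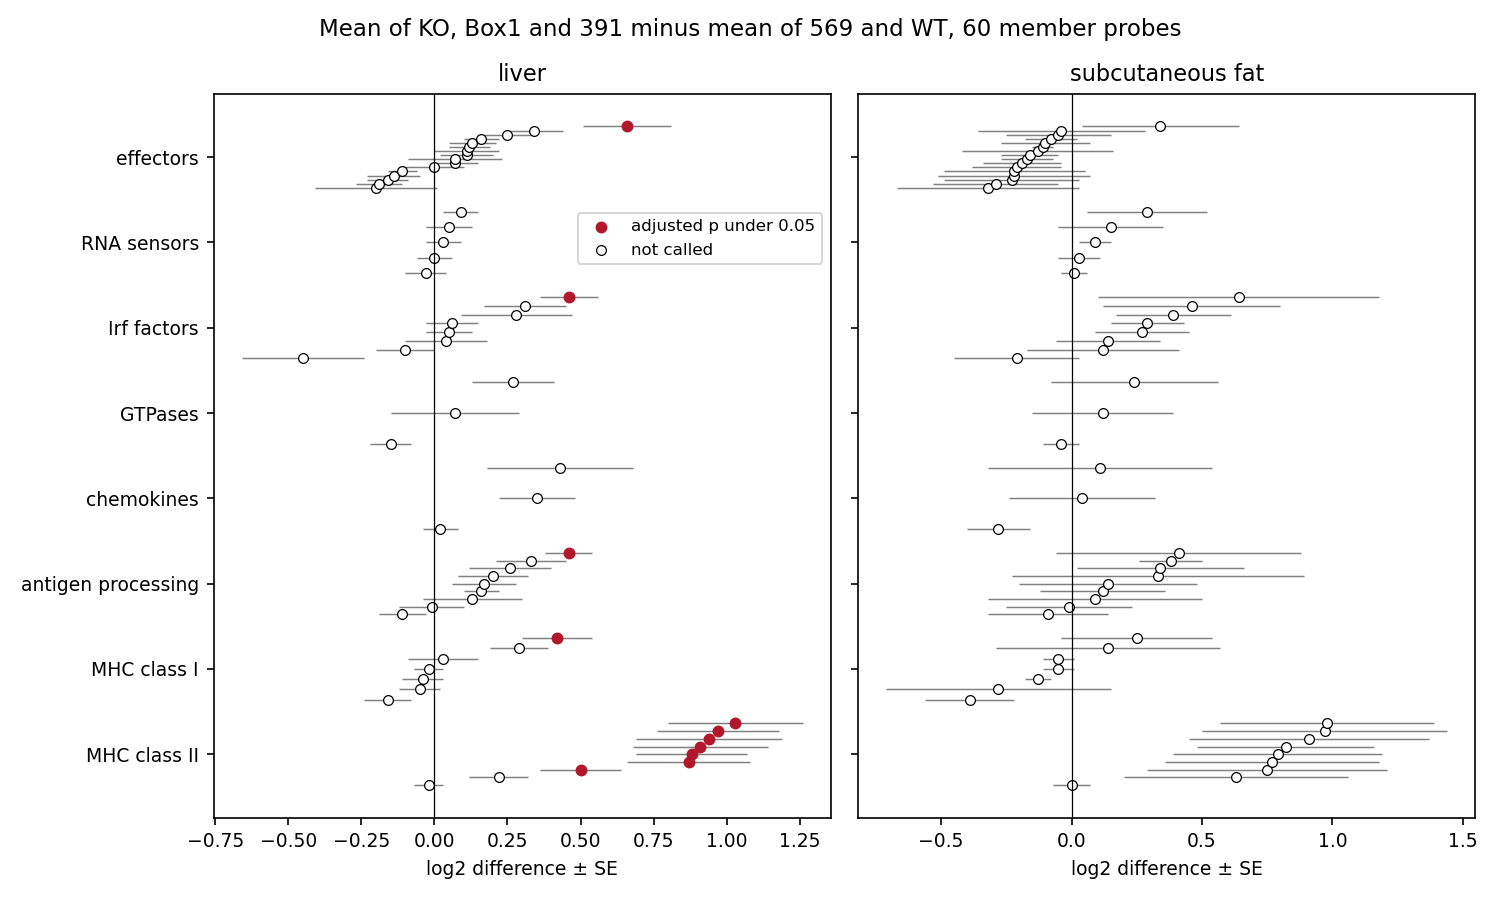
Log2 difference between the mean of KO, Box1 and 391 and the mean of 569 and WT for each of the 60 member probes (horizontal axis, ± SE), grouped by role, in liver and in subcutaneous fat. Filled points have an adjusted p under 0.05: 11 in liver, 7 of them class II, and 0 in fat.

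Macrophage, dendritic cell, B cell and T or NK cell markers were read beside the class II genes. In the pooled liver comparison 1 of 16 macrophage probes (Timd4, 0.40), 1 of 15 dendritic cell probes (Zbtb46, 0.31), 1 of 12 B cell probes (Cd79b, 0.58) and 2 of 24 T or NK cell probes (Thy1, 0.48, and Il7r, 0.47) rose, and none fell. These are 5 of 67 probes (7.46%), beside 9.61% of all probes. More of the endothelial list rose, 5 of 10 probes (Pecam1, Stab2 and Emcn, with a list median of 0.24). Of the hepatocyte list 3 of 9 probes (Alb and Cps1) rose as well. Of 6 epithelial probes 1 fell (Sox9, by 0.78), with a list median of −0.011. Of 12 pancreas probes 1 rose (Amy2a5, 0.71), as did 1 of 9 adipocyte probes (Lipe, 0.3). Timd4, a receptor of resident liver macrophages, also rose by 0.96 in KO against WT (adjusted p = 0.0031) and by 0.92 in KO against 391 (adjusted p = 0.025). The median log2 ratio of the macrophage list lay between 0.11 and 0.29 in KO livers, −0.06 and 0.32 in Box1 livers and −0.26 and 0.16 in 391 livers, against −0.18 to −0.01 in 569 livers and −0.14 to −0.08 in WT livers. Box1 replicate 2 and 391 replicate 2, the arrays low in class II, were also the lowest of their groups in that list (−0.06 and −0.26). Medians of the dendritic list stayed between −0.1 and 0.11 over the 15 arrays, and those of the B cell list between −0.11 and 0.1. The part of these cells in the class II result was not tested, and in pieces of tissue more cells of a type and more RNA per cell cannot be told apart.

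Of the genes that prepare peptides for class I, Tap2 was called. Tap2 is 1 of the 2 chains of the pump that carries peptides into the endoplasmic reticulum, and it had ratios of 1.24, 1.13 and 1.27 in KO livers, 1.29, 1.09 and 0.97 in Box1 livers, and 1.3, 1 and 1.19 in 391 livers, against 0.84, 0.85 and 0.92 in 569 livers and 0.86, 0.7 and 0.9 in WT livers. Every array of the first 3 genotypes lay above every array of the other 2, which held for no other member probe and for 1.56% of all probes, so 1 such probe among 60 is near the background. Tap2 rose by 0.46 ± 0.08 in the pooled comparison (adjusted p = 0.0018) and by 0.57 ± 0.12 in KO against WT (adjusted p = 0.026). It stayed called in the pooled comparison with each of the 15 arrays left out in turn. Its call in KO against WT was lost in 4 of 6 refits that left out a KO or WT array.

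Its partner Tap1 was not called, with ratios of 1.13, 0.93 and 1.13 in KO livers, 1, 0.82 and 1.07 in Box1 livers, and 0.89, 1.02 and 1.21 in 391 livers, against 0.78, 0.84 and 1.04 in 569 livers and 1.16, 0.76 and 0.88 in WT livers. The groups overlapped throughout, and the pooled difference was 0.17 ± 0.11 (adjusted p = 0.4). Psmb8, a catalytic subunit of the immunoproteasome that cuts peptides, had ratios of 1.49, 1 and 1.21 in KO livers, 1.34, 0.89 and 0.82 in Box1 livers, and 1.08, 1 and 1.15 in 391 livers, against 0.79, 0.93 and 1.26 in 569 livers and 1.13, 0.71 and 0.77 in WT livers. Its pooled difference was 0.26 ± 0.14 (adjusted p = 0.33), and its other 2 probes (0.16 and −0.01) were not called either. Of the 9 processing probes, which also cover the subunits Psmb9 and Psmb10 and the loading factor Tapbp, 7 had a positive difference, with a median of 0.18 and a range of −0.11 to 0.46.

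The class I genes had no common direction in liver. Of their 7 probes 3 had a positive pooled difference and 1 was called, with a median of −0.017 and a range of −0.16 to 0.42. B2m, the light chain shared by class I molecules, had ratios of 0.82, 0.86 and 1 in KO livers, 1.04, 0.8 and 0.95 in Box1 livers, and 1.05, 0.79 and 0.9 in 391 livers, against 1.01, 1.05 and 0.9 in 569 livers and 1.12, 1 and 1.01 in WT livers (difference of −0.16 ± 0.08, adjusted p = 0.27). The other B2m probe had a difference of −0.05. H2-K1, a class I heavy chain, had ratios of 1.07, 1.25 and 1 in KO livers, 1.11, 0.82 and 0.87 in Box1 livers, and 1.04, 0.84 and 1.02 in 391 livers, against 1.03, 0.77 and 0.96 in 569 livers and 1.45, 0.96 and 0.8 in WT livers (0.03 ± 0.12, adjusted p = 0.94). Its other 2 probes had differences of 0.29 and −0.02 and were not called.

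The heavy chain H2-D1 was split between its probes. The called probe had ratios of 1.16, 1.07 and 1.03 in KO livers, 1.27, 0.93 and 1.14 in Box1 livers, and 1.27, 1 and 1 in 391 livers, against 1.16, 0.84 and 0.6 in 569 livers and 0.96, 0.74 and 0.72 in WT livers, and it rose by 0.42 ± 0.12 (adjusted p = 0.048). The second probe had a difference of −0.04, and the call of the first was lost in 10 of 15 refits that left out an array. Class I heavy chains are near-identical copies that may share a probe, so which copy was measured is uncertain. Whether related genes of the Ifit, Oas, Mx and Gbp families share a probe could not be checked without probe sequences.

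Among the antiviral effectors, Usp18 was called in both comparisons and Mx2 in KO against WT alone. Usp18 removes the modifier ISG15 from proteins and dampens the type I interferon receptor. It had ratios of 2, 1.06 and 1.75 in KO livers, 1.26, 1.21 and 1 in Box1 livers, and 1.08, 0.73 and 0.86 in 391 livers, against 0.65, 0.82 and 0.79 in 569 livers and 1.01, 0.58 and 0.65 in WT livers. Its KO arrays lay above its WT arrays, and its Box1 and 391 arrays overlapped with both groups. It rose by 1.09 ± 0.23 in KO against WT (2.14-fold, adjusted p = 0.023) and by 0.66 ± 0.15 in the pooled comparison (adjusted p = 0.011). The KO call of Usp18 was lost in 4 of 6 refits that left out a KO or WT array, and in a fit of both groups alone.

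Mx2, an interferon-induced dynamin-like GTPase, had ratios of 1.52, 1.13 and 1.13 in KO livers, 1.05, 1.07 and 1 in Box1 livers, and 0.78, 0.97 and 1.07 in 391 livers, against 0.84, 1 and 1.01 in 569 livers and 0.81, 0.92 and 0.83 in WT livers. It rose by 0.55 ± 0.13 in KO against WT (adjusted p = 0.044), with no overlap of KO and WT arrays, and its pooled difference of 0.25 was not called. The Mx2 call was lost in all 6 refits that left out a KO or WT array, and with quantile normalization, with median centring and in a fit of both groups alone. The KO calls were Usp18, Mx2 and Tap2, all higher: 3 of 60 probes (5%), where 1.93% of all probes were called and 1.44% were called higher. No member was called without KO replicate 1 or without KO replicate 3, and 1 was called without KO replicate 2, WT replicate 2 or WT replicate 3. Usp18, Mx2 and Tap2 all lost their KO call without WT replicate 2, so the call there was of another member probe.

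The effectors did not move as a block. Isg15, the ubiquitin-like modifier, had ratios of 2.16, 0.84 and 1.31 in KO livers, 1.14, 0.9 and 0.78 in Box1 livers, and 1, 0.57 and 0.96 in 391 livers, against 0.91, 1.06 and 1.43 in 569 livers and 1.82, 1.12 and 0.85 in WT livers. KO replicate 1 and WT replicate 1 were the highest arrays and lay in opposite groups (KO minus WT of 0.15 ± 0.33, adjusted p = 0.92). Ifit1, which binds foreign RNA, had ratios of 0.95, 0.82 and 0.99 in KO livers, 1.13, 1.04 and 1.1 in Box1 livers, and 0.77, 0.97 and 0.83 in 391 livers, against 1.12, 1.15 and 1 in 569 livers and 0.88, 1.1 and 1.11 in WT livers (KO minus WT of −0.16 ± 0.11, adjusted p = 0.64). Its whole range over the tissue, 0.77 to 1.15, was narrow. Over the 16 effector probes, which also cover Ifit2, Ifit3, Mx1, Oas2, Oasl1, Oasl2 and Rsad2, 10 had a positive pooled difference, with a median of 0.089 and a range of −0.20 to 0.66.

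Among the regulators, Irf8, a factor of macrophages and dendritic cells, rose by 0.46 ± 0.10 in the pooled comparison (adjusted p = 0.011). Its ratios were 0.87, 1.5 and 1.14 in KO livers, 1.33, 1 and 1.13 in Box1 livers, and 1.14, 1.09 and 1.35 in 391 livers, against 0.89, 0.88 and 0.77 in 569 livers and 0.78, 0.82 and 0.93 in WT livers. KO replicate 1 alone lay among the 569 and WT arrays. Irf7, the factor that amplifies type I interferon, had ratios of 1.52, 0.93 and 0.85 in KO livers, 1.07, 0.93 and 0.96 in Box1 livers, and 0.74, 0.65 and 1.01 in 391 livers, against 0.89, 1.09 and 1.16 in 569 livers and 3.17, 1.24 and 1 in WT livers. WT replicate 1, at 3.17, was the highest value of any member in either tissue, and the pooled difference of −0.45 ± 0.21 was not called (adjusted p = 0.24). Irf1, an early factor of interferon gamma, had ratios of 1.07, 1.44 and 1.14 in KO livers, 0.93, 0.99 and 1.05 in Box1 livers, and 0.8, 0.65 and 1.89 in 391 livers, against 0.62, 0.76 and 1.07 in 569 livers and 1.12, 1 and 0.79 in WT livers (0.28 ± 0.19, adjusted p = 0.49). The 391 arrays spanned nearly the whole range of Irf1, and its other 3 probes were not called. The 2 probes of Irf9, a factor of type I interferon signalling, had differences of 0.05 and −0.10.

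The remaining roles held no call in liver. The 5 probes of the RNA sensors Ifih1 and Ddx58 had pooled differences between −0.03 and 0.09, and the 3 GTPase probes (Gbp2, Gbp3, Igtp) between −0.15 and 0.27. Cxcl10, a chemokine that draws T cells, had ratios of 0.97, 0.95 and 1.12 in KO livers, 1.06, 1.03 and 1.16 in Box1 livers, and 0.94, 1 and 0.99 in 391 livers, against 1.04, 1.01 and 0.94 in 569 livers and 0.99, 1.14 and 0.96 in WT livers. It had a pooled difference of 0.02 ± 0.06, and the 2 probes of Cxcl9 had larger, uncalled ones of up to 0.43.

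Outside the pooled comparison and KO, no member probe was called in liver by limma. Box1 against WT had 9 member probes at an unadjusted p under 0.05 and 1.32% of all probes called, and 391 against WT had 9 and 1.91%. KO against 391 had 17 and 0.18%. For 569 against WT, made within a slide, 0 member probes had an unadjusted p under 0.05 and 0.00858% of all probes were called. These member counts use the unadjusted p and the shares of all probes the adjusted p, so they cannot be set against each other. The moderated F test for any difference of the mutants from WT called 4 member probes (Usp18, Tap2, H2-Aa and an H2-Ab1 probe), where 5.43% of all probes were called. That count ran from 0 without 569 replicate 2 to 9 without 391 replicate 3, and it was 5 or 6 without Box1 replicate 1, WT replicate 2 or 391 replicate 1, 7 or 8 without Box1 replicate 2 or 391 replicate 2, and 1 or 2 without any of the others.

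**Figure D3:**
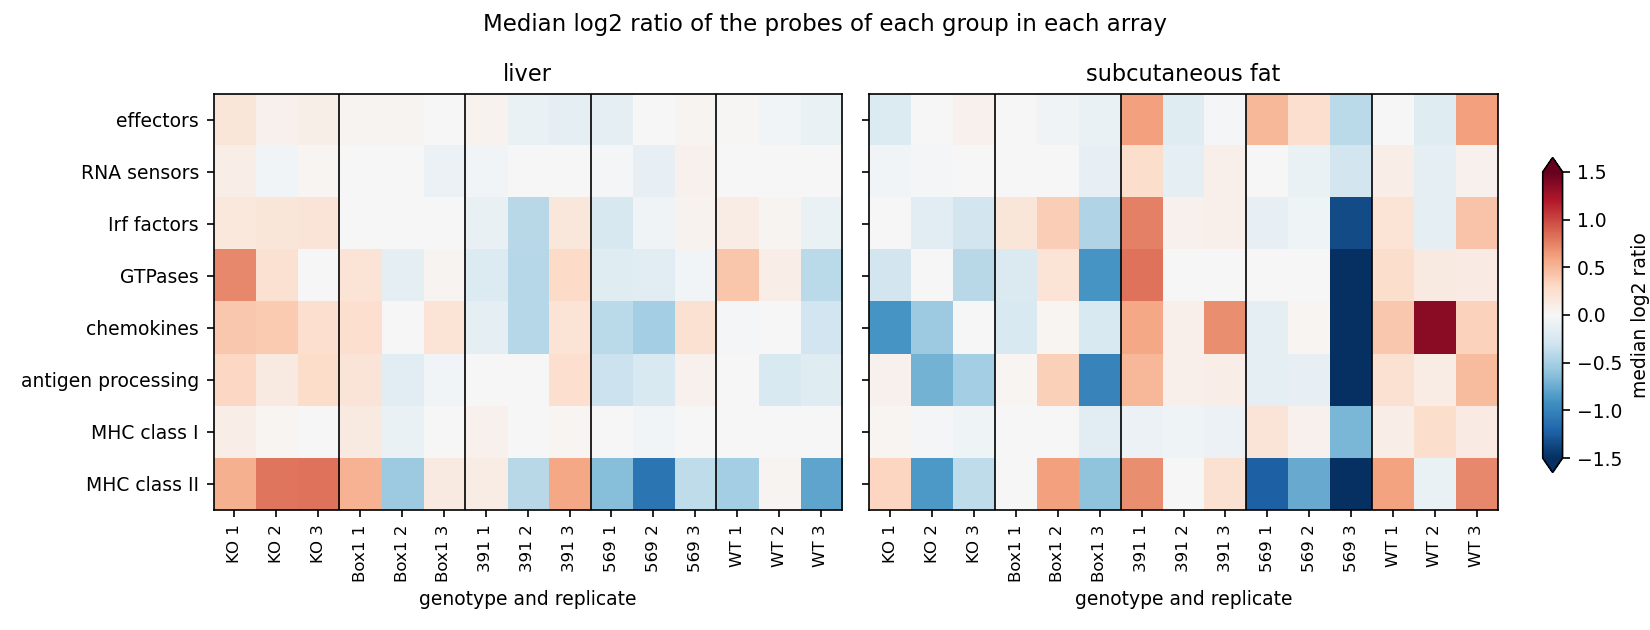
Median log2 ratio of the probes of each role (rows) in each of the 15 arrays (columns, genotype and replicate) of liver and of subcutaneous fat, with colours limited to ±1.5. In liver the class II row runs from 0.53 to 0.82 in KO and from −1.09 to −0.38 in 569. Some arrays of Box1, 391 and WT lie within these ranges, such as 391 replicate 3 (0.58) and WT replicate 3 (−0.79). In fat the column of 569 replicate 3 is low in every role.

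A wider list of 104 interferon and antigen presentation genes, of which 92 were measured by 152 probes, gave 16 probes that rose and 3 that fell in the pooled liver comparison, 12.5% of the list beside 9.61% of all probes, which is near the background. Jak2, the kinase shared by the receptors of interferon gamma and growth hormone, rose by 0.50 ± 0.08 (adjusted p = 0.00097), and Ifngr1, the interferon gamma receptor chain that binds the ligand, by 0.46 ± 0.10 (adjusted p = 0.0075). Sp100, a nuclear body protein, rose by 0.25 ± 0.05 (adjusted p = 0.0073), and the interferon-induced gene Ifi27 fell by 1.04 on the log2 scale (SE 0.17, adjusted p = 0.0015). Ifi27 also fell by 1.38 in 391 livers and by 1.56 in Box1 livers against WT, where Ifitm1 (0.61, 391) and Jak2 (0.64, Box1) rose. In KO against WT 4 probes rose and 0 fell (2.63% of the list, beside 1.93% of all probes): Eif2ak2, the RNA-dependent kinase PKR, by 0.83 ± 0.14 (adjusted p = 0.0061), the class II loading factors H2-DMb1 by 0.80 and H2-DMb2 by 0.82, and Parp12 by 0.57. Eif2ak2 was also the single pathway gene called in KO against 391 (0.89 ± 0.14, adjusted p = 0.024).

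In subcutaneous fat no member probe was called in any comparison. KO against WT had 3 member probes at an unadjusted p under 0.05 in limma, Box1 against WT 2, 391 against WT 6, 569 against WT 21, KO against 391 3, and the pooled comparison 7. Across the array 0% of the probes were called in KO against WT, 0.00214% in Box1, 0.0129% in 391, 0% in 569, 0.0172% in KO against 391 and 0.0193% in the pooled comparison. The F test called no member (12 at an unadjusted p under 0.05) and 0.015% of all probes. Shares of all probes are at the adjusted p, so the unadjusted member counts cannot be set against them. Arrays of 1 genotype were far more scattered than in liver, with a median residual SD over the members of 0.52 in fat and 0.22 in liver, beside 0.15 and 0.13 over all probes. Among class II probes it was 0.86 in fat and 0.48 in liver.

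H2-Aa had ratios of 1.24, 0.53 and 0.78 in KO fat, 1.39, 1.53 and 0.57 in Box1 fat, and 1.77, 1 and 1.12 in 391 fat, against 0.48, 0.77 and 0.09 in 569 fat and 1.69, 0.92 and 1.65 in WT fat. Cd74 had ratios of 1.21, 0.55 and 0.73 in KO fat, 1, 1.47 and 0.67 in Box1 fat, and 1.62, 1.09 and 1.12 in 391 fat, against 0.39, 0.45 and 0.06 in 569 fat and 1.48, 0.73 and 1.45 in WT fat. The 569 arrays were low in both genes and did not overlap with WT, and 569 replicate 3 was lowest by far. For 10.9% of all probes the 569 and WT arrays of fat did not overlap. The class II median of 569 minus WT was −2.33, beside −0.01 over all probes, with adjusted p of 0.55 for H2-Aa (−2.09 ± 0.67) and for Cd74 (−2.41 ± 0.64). Without 569 replicate 3 the class II median was −1.41 and Cd74 differed by −1.47 (adjusted p = 0.48).

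**Figure D4:**
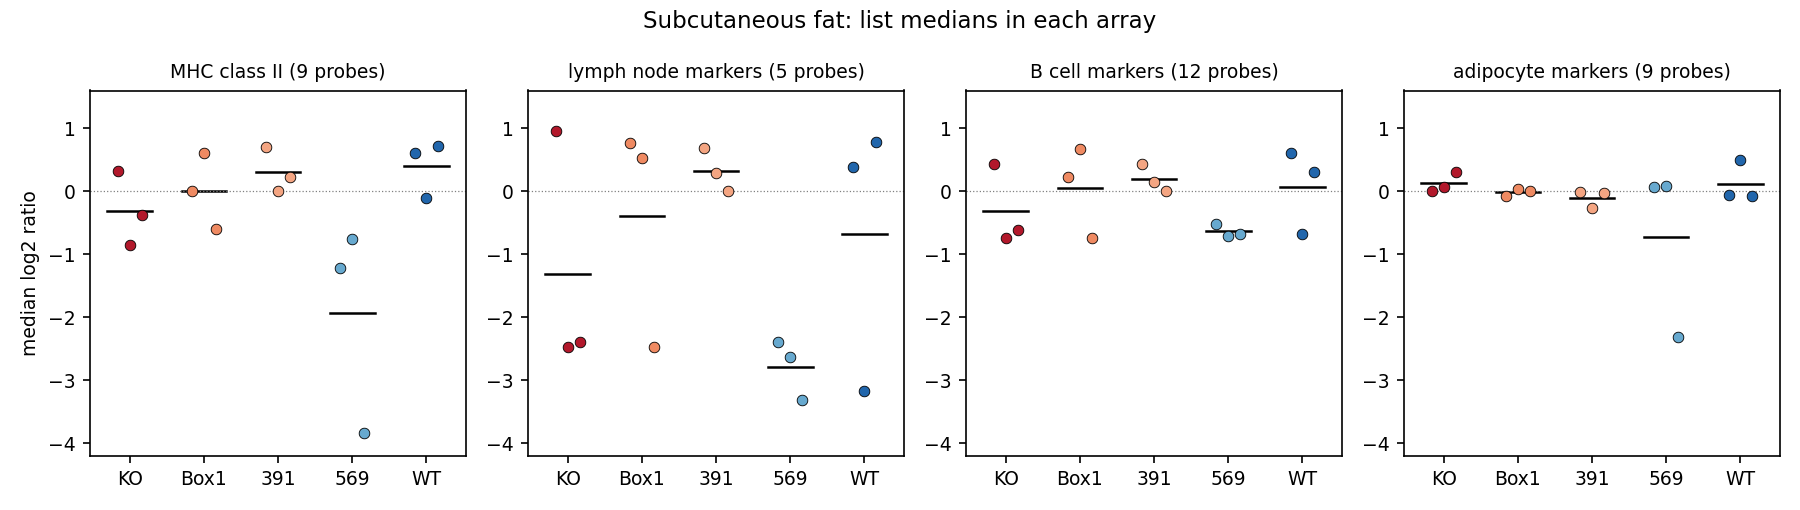
Median log2 ratio in each fat array of the 9 MHC class II probes and of markers of lymph node, B cells and adipocytes (vertical axis), by genotype, with bars at the mean of 3 arrays. The 569 arrays are low in class II (−3.84 to −0.76) and in lymph node markers (−3.32 to −2.4), and 569 replicate 3 alone is low in adipocyte markers (−2.32).

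Markers of lymph node and of macrophages were read beside these genes. The median over 5 lymph node genes (Ccl21a, Ccl19, Cxcl13, Glycam1 and Madcam1) was 0.95, −2.47 and −2.4 in KO fat, 0.77, 0.52 and −2.47 in Box1 fat, and 0.68, 0.29 and 0 in 391 fat, against −2.4, −2.64 and −3.32 in 569 fat and 0.38, −3.18 and 0.78 in WT fat. In KO, Box1 and WT, the arrays low in lymph node markers were those lowest in class II, the 391 arrays were low in neither, and all 569 arrays were low in both. The macrophage list had another order, with medians of 0.51, 0.37 and −1.34 in 569 fat, against −0.05, −0.12 and 0.1 in WT fat. With the lymph node median as a covariate, chosen after the data were seen, Cd74 differed by −1.71 ± 0.60 and H2-Aa by −1.33 ± 0.61 between 569 and WT (adjusted p of 0.95 each). In the pooled fat comparison the class II median was 0.79 without a call, and Cd74 differed by 0.98 (adjusted p = 0.5), by 0.51 without 569 replicate 3 and by 0.56 with the covariate. All 569 arrays were low in lymph node markers, so marker level and genotype largely coincided in 569 against WT. The part of lymph node tissue in these results, and in the fat results below, was not tested. Muscle markers ranged from −2.84 to 5.12 over the fat arrays, and their part was not tested either.

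The processing probes of fat were low in the same 569 array, and so were 4 of the 7 class I probes. The other 3 class I probes, 1 each of B2m, H2-K1 and H2-D1, read 0.99 to 1.03 there. Psmb8 had ratios of 1.06, 0.5 and 0.51 in KO fat, 0.92, 1.63 and 0.28 in Box1 fat, and 1.41, 1.29 and 0.89 in 391 fat, against 0.61, 1 and 0.06 in 569 fat and 1.35, 1.08 and 1.55 in WT fat. Tap1 had ratios of 1.39, 0.69 and 0.68 in KO fat, 1, 1.86 and 0.45 in Box1 fat, and 1.43, 1.42 and 1.07 in 391 fat, against 0.89, 0.51 and 0.31 in 569 fat and 1.6, 0.87 and 1.42 in WT fat. KO replicates 2 and 3 and Box1 replicate 3 were low in both, as they were in the lymph node markers. WT replicate 2, also low in those markers, had Psmb8 at 1.08 and Tap1 at 0.87. Of the 569 arrays, all low in those markers, replicate 1 had 0.61 and 0.89, replicate 2 had 1 and 0.51, and replicate 3 was low in both. B2m had ratios of 0.98, 1.15 and 1 in KO fat, 1, 0.89 and 0.89 in Box1 fat, and 1.11, 0.88 and 0.94 in 391 fat, against 1.09, 1.04 and 0.22 in 569 fat and 0.97, 1.17 and 1.1 in WT fat, so 1 array decided its 569 value. H2-K1 had ratios of 0.97, 0.64 and 0.68 in KO fat, 1.12, 1 and 0.38 in Box1 fat, and 1.16, 0.91 and 0.87 in 391 fat, against 1.25, 1.41 and 0.16 in 569 fat and 1.5, 1.6 and 1.44 in WT fat. All 12 mutant arrays of this probe lay below the WT arrays, and no difference was called (KO minus WT of −1.01 ± 0.66, adjusted p = 0.89). How many of all probes were apart in this way was not counted. On another H2-K1 probe a 569 array (1.36) lay above a WT array (1.31), and the third probe ran only from 0.84 to 1.08.

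The effectors of fat followed another order of arrays. Isg15 had ratios of 0.86, 1 and 1.12 in KO fat, 1.09, 0.91 and 1 in Box1 fat, and 1.65, 0.74 and 0.96 in 391 fat, against 2.03, 1.53 and 0.54 in 569 fat and 0.89, 1.12 and 1.63 in WT fat. Irf7 had ratios of 0.88, 0.91 and 1.03 in KO fat, 0.89, 1.01 and 0.83 in Box1 fat, and 1.6, 0.99 and 0.78 in 391 fat, against 1.92, 1.28 and 0.53 in 569 fat and 1.1, 1 and 1.41 in WT fat. Both were high in 391 replicate 1, in 569 replicates 1 and 2 and in WT replicate 3, and the effector median there was 0.62, 0.5, 0.25 and 0.61. In KO and Box1 fat the effector median stayed between −0.2 and 0.06. The pooled difference of Isg15 was −0.22 ± 0.27 (adjusted p = 0.84), and −0.51 ± 0.19 without 569 replicate 3 (adjusted p = 0.41). Its difference between 569 and WT was 0.02 ± 0.42 (adjusted p = 0.99), and 0.58 ± 0.31 without that array (adjusted p = 0.76).

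Irf1 had ratios of 1.01, 0.78 and 0.73 in KO fat, 0.88, 1.23 and 0.68 in Box1 fat, and 1.2, 1 and 1.11 in 391 fat, against 0.66, 0.87 and 0.13 in 569 fat and 1.14, 1.11 and 1.08 in WT fat. On this probe the 569 arrays lay below the WT arrays (−1.40 ± 0.52, adjusted p = 0.55), and the difference was −0.55 without 569 replicate 3. The arrays of these groups did not overlap for 10.9% of all probes. On its other 3 probes the 569 and WT arrays overlapped. Ifit1 had ratios of 0.8, 0.94 and 0.87 in KO fat, 1, 0.94 and 1.13 in Box1 fat, and 0.82, 1.09 and 1.12 in 391 fat, against 1.06, 0.93 and 1.04 in 569 fat and 1.19, 0.83 and 1.09 in WT fat. It stayed flat in 569 replicate 3, where Irf1 was low. Cxcl10 had ratios of 0.97, 0.86 and 1.06 in KO fat, 0.93, 1.02 and 0.85 in Box1 fat, and 1.03, 0.82 and 0.87 in 391 fat, against 1.03, 1.14 and 0.96 in 569 fat and 1, 1.08 and 1.74 in WT fat, with WT replicate 3 alone high.

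**Figure D5:**
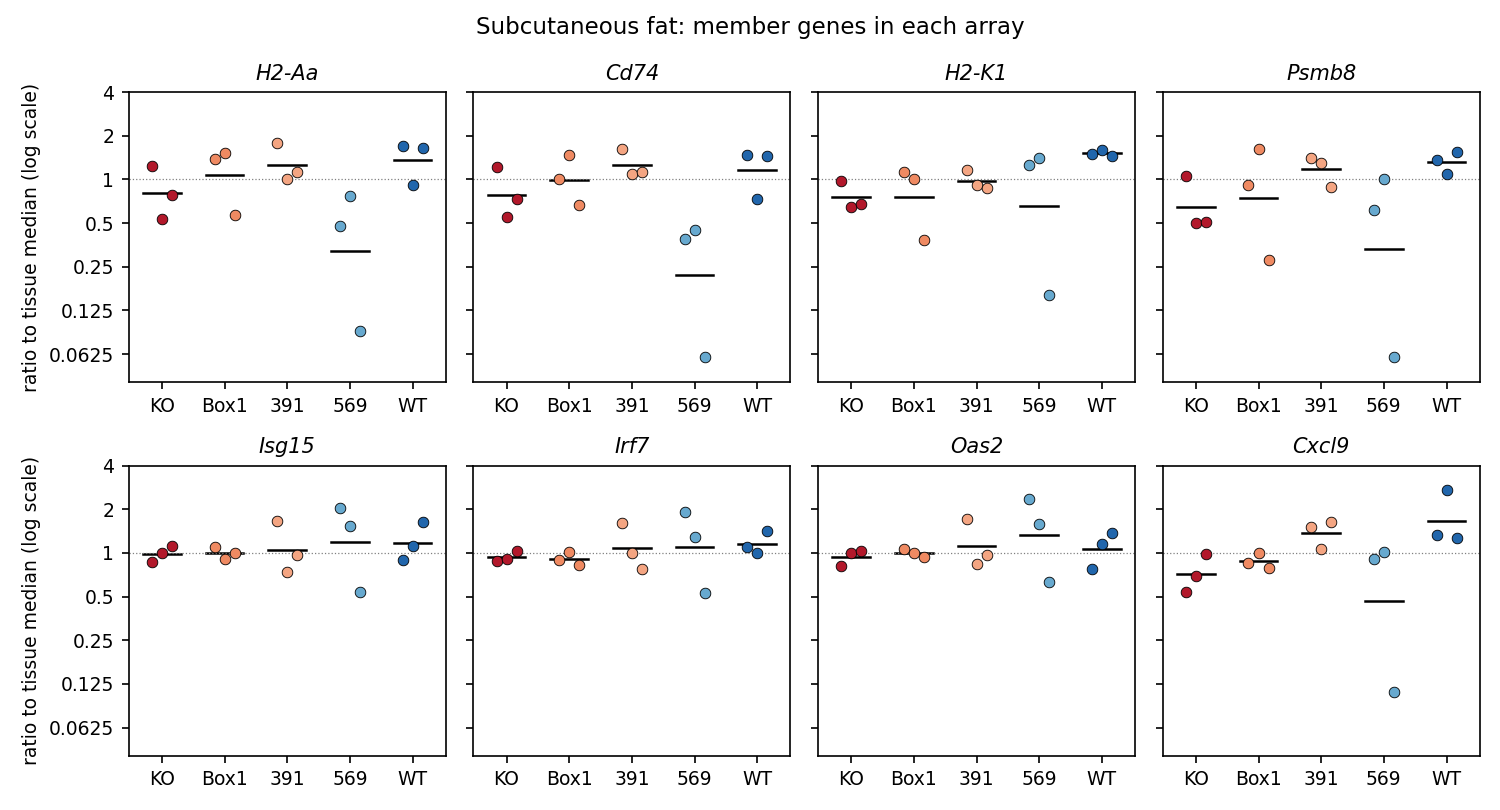
Ratio of the lead probe of 8 members in each fat array (vertical axis, ratio to the tissue median, log scale) by genotype, with 3 arrays per genotype as points and bars at the mean of the log2 ratios. In H2-Aa, Cd74 and Psmb8 the lowest point is 569 replicate 3 (0.09, 0.06 and 0.06), and in Isg15 and Oas2 the highest is 569 replicate 1 (2.03 and 2.35).

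A difference between genotypes was then tested for a difference between the tissues. No member probe was called for KO (17 of 60 at an unadjusted p under 0.05 in limma, 0.341% of all probes called), Box1 (6, 0.148%), 391 (2, 0.227%), 569 (18, 0%) or the pooled comparison (6, 0.866%). Here too the member counts are unadjusted and the shares adjusted, so they cannot be compared. Usp18 differed by 1.09 in KO liver and by −0.36 in KO fat, each against WT, an uncalled difference of 1.45 ± 0.53 (adjusted p = 0.38). For the H2-K1 probe with the strongest pooled contrast the values were 0.29 in liver and −0.39 in fat (0.68 ± 0.21, adjusted p = 0.15). Class II differences of KO from WT had a median of 1.2 in liver and −0.64 in fat, and no class II probe was called as differing between the tissues.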

How the data were processed

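Per the labels' protocols, biotin-labelled total RNA of frozen tissue was hybridised to Illumina bead arrays. Software, background treatment and normalization: not given in the sources used here. Deposited values are a ratio of a probe to its own median over the 15 arrays of its tissue. This reading comes from the file, where that median equalled 1 for all 46643 probes in each tissue, ratios had 2 decimals between 0.01 and 168.6, and array medians lay between 0.98 and 1.01. The file holds no level, depth or detection value. Probes were named through the platform annotation (1 symbol for 32794 probes, several for 55, none for 13794).

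The log2 ratio was tested two-sided with limma 3.58.1 under R 4.3.3, by lmFit, contrasts.fit and eBayes, with Benjamini-Hochberg adjustment over all probes. A tissue's 5 genotypes shared a fit, and the 30 arrays together gave the differences between tissues. The fit was tested on simulated data. Members and lists were chosen with earlier results of these data known. Members called in a comparison, and Isg15, Ifit1, Irf7, Irf1, Psmb8, Tap1, B2m, H2-K1, H2-Aa, Cd74 and Cxcl10, are named with their values, with the probe of largest SD over the 30 arrays leading; up to 4 called genes of the wider list are named per comparison. The markers, the motifs, and Oas2, Cxcl9, Ciita and Ghr were added as context after their values were seen. The 5 slides held 6 arrays each. Whether the 3 arrays of a group are 3 animals is not stated, so the p-values cover only the spread between arrays, which may be technical. Arrays of a group had equal ratios for 2.11% to 3.42% of the probes, so none was a copy. Alternatives changed the scaling, the weights, the prior, the arrays, the probes and the log offset.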

Additional observations from a re-analysis of the deposited data

How the results depend on the processing

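Of the recomputed counts, 305 stayed within 1.5 times their value and 39 did not. Of the recomputed differences of called probes, 283 kept their call, 86 lost it and 0 changed sign. The causes were not tested. The setting without the 391 arrays and the lymph node covariate were chosen after seeing the data. In the pooled liver comparison (11 member probes) quantile normalization called 6. In the F test (4) quantile normalization and a robust prior called 2 each, and leaving out the 391 arrays with pancreatic transcripts called 12. In KO against WT liver (3) array weights and probes with 1 symbol called 5 each, and a fit of both groups alone called 11, though it lost Usp18 and Mx2. In 391 against WT liver (0) a robust prior, probes with 1 symbol, the mean over a gene's probes, and leaving out both 391 arrays called 1 each. Of the contrasts between tissues (0 each), KO called 1 with quantile normalization, 2 with array weights and 3 in the fit of its groups alone, the pooled contrast 2 with quantile normalization and 3 with array weights, and Box1 1 with array weights. With 1 array left out, the liver counts ran from 6 to 14 (pooled), 0 to 9 (F test), 0 to 3 (KO), 0 to 1 (Box1) and 0 to 1 (391), the pooled contrast between tissues from 0 to 3 (3 without fat 569 replicate 3), and the other counts stayed at 0, fat included. Usp18, Irf8, Tap2, H2-Aa, 1 H2-Ab1 probe and 1 Cd74 probe kept their pooled call in all 15 such refits. No paired analysis was possible because the replicate numbers are only names given in accession order. Signal over background, which would limit dim probes, is unknown.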
